A study of Mus musculus with 7 samples.

Results

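BAFF and APRIL are a pair of related survival factors for B lymphocytes, and the 5 genes described here encode these ligands and their receptors: Tnfsf13b (BAFF), Tnfsf13 (APRIL), Tnfrsf13b (TACI), Tnfrsf13c (the BAFF receptor) and Tnfrsf17 (BCMA). They were taken by gene symbol from a table of 24062 genes, and all 5 were among the 15188 genes with enough counts to be tested. Transcripts of whole mouse spleens were counted in 3 enlarged spleens of genotype Vav1-iCre;Brca1F22-24/F22-24 and in 4 Brca1+/+ spleens labelled C57BL6, all from mice aged 2 to 3 months. Brca1 encodes a protein needed for homologous recombination, the allele is named for exons 22 to 24, and Vav1-iCre drives the recombinase in blood cells. The series concerns blood stem cell function under Brca1 mutation. The Cre transgene, the Brca1 allele and the enlarged spleen go together in the mutant group, and a strain is named for wild type alone, so their effects cannot be told apart. Each library is labelled as its own spleen, with no litter, sex or matching given, so the tests rest on the spread among spleens alone.

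BAFF and APRIL are members of the tumor necrosis factor family that are made mainly by myeloid and stromal cells. BAFF binds all 3 of the receptors, with the BAFF receptor serving it alone, while APRIL binds TACI and BCMA and also the heparan sulfate chains of proteoglycans such as syndecan-1. In the spleen, signalling through the BAFF receptor keeps maturing and follicular B cells alive, TACI is most abundant on marginal zone and activated B cells, and BCMA supports plasma cells. The receptors act through TRAF adaptors and the noncanonical NF-kappaB pathway, in which the kinase NIK (Map3k14) leads to processing of Nfkb2 and its pairing with Relb.

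The start regions of 3 members are shown: the BAFF ligand, the receptor that serves it alone, and BCMA, so that windows with and without motif matches can be read side by side. Each runs 5′ to 3′ over 300 bases, from 250 bases before to 50 bases after a start site in RefSeq on GRCm38.p6. They are Tnfsf13b at chr8:10006383-10006682 on the plus strand, Tnfrsf13c at chr15:82224331-82224630 on the minus strand and Tnfrsf17 at chr16:11313559-11313858 on the plus strand. Capitals mark matches to the motifs named after the sequences.
Tnfsf13b: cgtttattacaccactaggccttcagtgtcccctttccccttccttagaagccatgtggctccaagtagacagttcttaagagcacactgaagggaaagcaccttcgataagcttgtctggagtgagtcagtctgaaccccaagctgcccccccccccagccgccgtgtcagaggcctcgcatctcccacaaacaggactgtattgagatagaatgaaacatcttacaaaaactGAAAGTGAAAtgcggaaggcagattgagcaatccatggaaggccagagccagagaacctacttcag
Tnfrsf13c: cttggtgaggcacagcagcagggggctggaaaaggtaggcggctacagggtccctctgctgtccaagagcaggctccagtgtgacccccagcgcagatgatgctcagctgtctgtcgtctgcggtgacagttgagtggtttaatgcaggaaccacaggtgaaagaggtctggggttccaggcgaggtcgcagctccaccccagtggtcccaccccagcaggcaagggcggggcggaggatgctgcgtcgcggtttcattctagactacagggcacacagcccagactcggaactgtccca
Tnfrsf17: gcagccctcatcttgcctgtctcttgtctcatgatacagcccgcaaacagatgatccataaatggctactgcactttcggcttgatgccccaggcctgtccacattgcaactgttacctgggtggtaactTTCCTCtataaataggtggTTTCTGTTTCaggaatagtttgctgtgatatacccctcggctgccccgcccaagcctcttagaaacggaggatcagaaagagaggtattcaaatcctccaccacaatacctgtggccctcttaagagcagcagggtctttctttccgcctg
The motifs, chosen after the sequences were seen and searched on both strands, were the core of the interferon-stimulated response element (GAAA, any 2 bases, GAAA), the core bound by the B cell factor EBF1 (TCCC, any 2 bases, GGGA), the octamer ATGCAAAT bound by Oct proteins, the core GAGGAA bound by PU.1 of myeloid and B cells, and the NF-kappaB consensus. In Tnfsf13b the interferon element core GAAAGTGAAA lies at -16 to -7 from the start site. In Tnfrsf17 the same motif reads TTTCTGTTTC at -101 to -92, and the PU.1 core reads TTCCTC at -120 to -115, both on the opposite strand. These matches do not overlap each other. Of 32851 such windows over all genes, 3.44% hold the interferon element core, 28.3% the PU.1 core, 0.904% the EBF1 core, 1.74% the octamer and 8.46% the NF-kappaB consensus. The Tnfrsf13c window holds none of the 5 motifs, nor do the windows of Tnfsf13 and Tnfrsf13b or a further window of Tnfsf13b, and a match or its absence describes letters in this window and nothing of a factor's binding.

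Total counts per library ranged from 26889712 to 63612532. Levels are the deposited CPM, the counts times 1 constant per library set by the authors. Differences are log2 fold changes, mutant over wild type, with the standard error (SE), from edgeR's quasi-likelihood test on the deposited counts. A gene is said to have risen or fallen where its Benjamini-Hochberg adjusted p was under 0.05. Brca1, the targeted gene, stood at 67.7, 47.1 and 42.8 CPM in mutants 1 to 3, against 45.7, 71.8, 15.7 and 20.4 CPM in wild type 1 to 4, without passing the test (0.44, SE 0.51, adjusted p = 0.49, edgeR). These counts cover the gene as a whole, so they do not check a deletion of exons 22 to 24. Levels of cell type markers differed between the groups. The summed level of 19 B cell markers was 136 to 393 CPM in the mutants, against 6346 to 8403 CPM in wild type, that of 14 T cell markers was 3647 to 6978 CPM in the mutants, against 977 to 1361 CPM in wild type, and none of these markers was at 0 in all mutant spleens. Mutant 3 stood apart with 21.7 CPM of summed neutrophil markers, where mutants 1 and 2 had 492 and 621 CPM. Erythroid markers summed to 15643, 2320 and 3392 CPM in mutants 1 to 3, against 5872, 12237, 978 and 1095 CPM in wild type 1 to 4. Each library is a whole spleen, and CPM is a share of its library. Fewer cells of a type, less RNA per cell and dilution by other cells' RNA cannot be told apart in any value that follows.

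All 3 receptors and the ligand BAFF fell in the mutant spleens, while APRIL did not pass the test. That is 4 of 5 members lower, where 28.9% of all genes tested were lower by the same rule, 28.5% were higher and 57.4% were either. The receptor genes fell about 6.80-fold to 13.9-fold and BAFF 6.02-fold, and for these 4 genes each mutant spleen lay below each wild-type spleen, as it did for 32.3% of all genes tested, with 29.2% in the opposite arrangement. The median log2 fold change over all genes tested was -0.02.

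**Figure D1:**
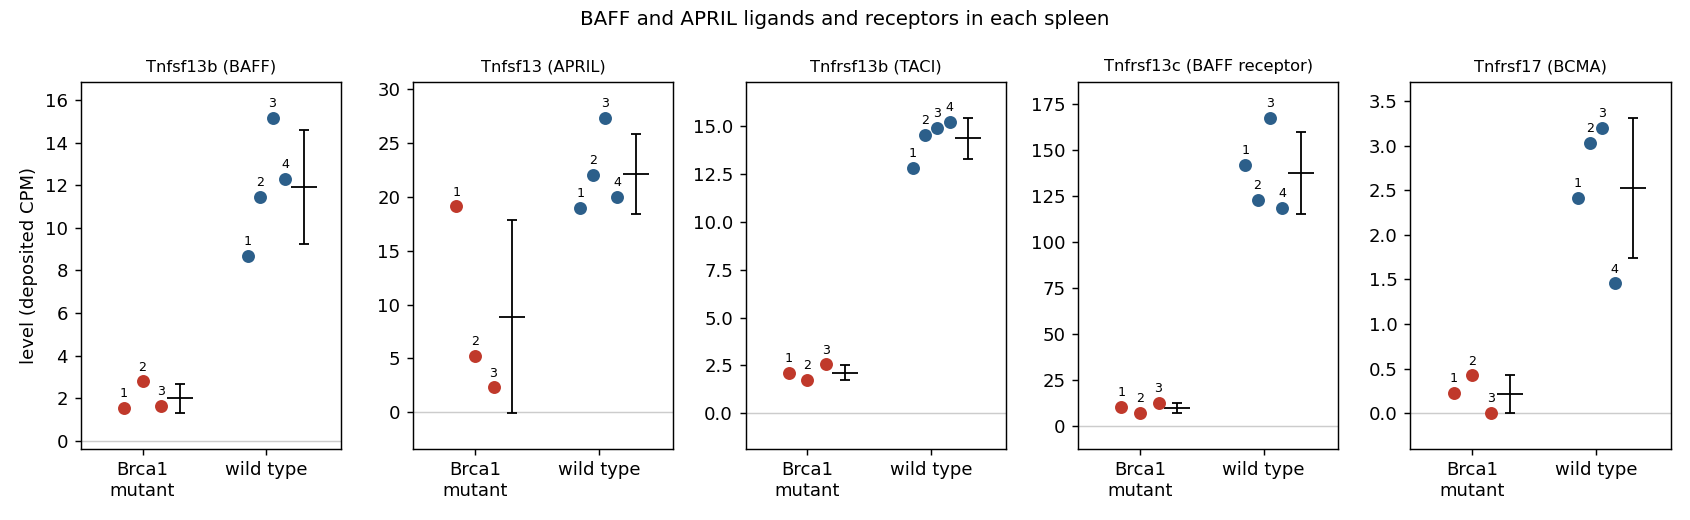
Level of each ligand and receptor gene in deposited CPM (linear vertical axis, a separate scale per gene) in 3 Brca1 mutant and 4 wild-type spleens, with spleen numbers above the points and bars at the mean ± SD. The mutant points lie below all wild-type points for Tnfsf13b, Tnfrsf13b, Tnfrsf13c and Tnfrsf17, and for Tnfsf13 mutant 1, at 19.1 CPM, lies within the wild-type range.

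Among the ligands, BAFF is the factor without which mature B cells are lost in mice. Tnfsf13b (chromosome 8, 10006633 to 10035999, plus strand, mm10) stood at 1.55, 2.79 and 1.63 CPM in mutants 1 to 3, against 8.67, 11.5, 15.2 and 12.3 CPM in wild type 1 to 4. The groups did not overlap, and the highest mutant spleen, mutant 2, held less than the lowest wild-type spleen. Tnfsf13b averaged 1.99 ± 0.691 CPM in mutants and 11.9 ± 2.68 CPM in wild type (SD, n = 3 and 4). Its log2 fold change was -2.59 (SE 0.33, edgeR adjusted p = 6.06e-04). The mutant values rest on 75, 79 and 50 counts, and the 95% exact binomial interval of mutant 2, 2.21 to 3.47 CPM, stayed below that of wild type 1, 7.62 to 9.82 CPM. These intervals cover counting error only. Of the 4771 bases of the matching GENCODE M21 transcript 1698 lie in the deposited span, so the level leaves out reads from outside that span, in both groups.

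APRIL promotes survival of plasma cells. Tnfsf13 (chromosome 11, 69682577 to 69685554, minus strand) stood at 19.1, 5.25 and 2.32 CPM in mutants 1 to 3, against 19.0, 22.1, 27.3 and 20.0 CPM in wild type 1 to 4. Mutant 1 lay within the wild-type range and mutants 2 and 3 lay below it. The log2 fold change was -1.31 (SE 0.63, adjusted p = 0.11, edgeR), and without mutant 1 it was -2.46 (edgeR adjusted p = 0.00192, where its alternatives ranged from 0.00192 to 0.266). DESeq2 and limma-voom called it lower over all 7 libraries (adjusted p = 0.0472 and 0.0329). Mutant 1 was also the mutant with the most summed monocyte and macrophage markers, at 1064 CPM beside 640 and 217 CPM in mutants 2 and 3, and the most erythroid markers, and the part of either in the Tnfsf13 level was not tested.

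The counts of Tnfsf13 are uncertain, because its span lies inside that of the read-through gene Tnfsf12Tnfsf13, which joins it to its neighbour Tnfsf12 (TWEAK, another ligand of the family). Tnfsf12Tnfsf13 stood at 18.5, 6.2 and 3.49 CPM in the mutants, against 22.8, 26.3, 33.3 and 26.3 CPM in wild type, and fell by 1.53 on the log2 scale (SE 0.53, adjusted p = 0.038, edgeR). It did not pass when any 1 library other than mutant 1 was left out (edgeR adjusted p = 0.054 to 0.118), nor with the replicate number as a block (0.0668). Tnfsf12, whose span lies in the read-through gene and does not touch that of Tnfsf13, stood at 6.72, 4.55 and 3.62 CPM in the mutants, against 14.3, 15.1, 18.7 and 16.4 CPM in wild type. For Tnfsf12 all mutants lay below all wild-type spleens, and the log2 fold change was -1.70 (SE 0.26, adjusted p = 0.00128, edgeR). For every 100 counts of Tnfsf12 there were 284, 116 and 64.0 counts of Tnfsf13 in mutants 1 to 3, against 133, 146, 146 and 122 in wild type 1 to 4, so mutant 1 was above and mutants 2 and 3 below all wild-type spleens.

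Among the receptors, the BAFF receptor had the highest level in wild type. Tnfrsf13c (chromosome 15, 82221744 to 82224336, minus strand) stood at 10.3, 7.02 and 12.6 CPM in mutants 1 to 3, against 142, 123, 168 and 118 CPM in wild type 1 to 4. The groups were far apart, and mutant 3 was the highest of the mutants. The mean was 9.97 ± 2.82 CPM in mutants and 138 ± 22.4 CPM in wild type (SD, n = 3 and 4). The log2 fold change was -3.79 (SE 0.26, edgeR adjusted p = 1.44e-04). Of all genes tested 483 (3.18%) had a lower log2 fold change.

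TACI restrains B cell numbers and supports antibody class switching. Tnfrsf13b stood at 2.09, 1.73 and 2.55 CPM in mutants 1 to 3, against 12.8, 14.5, 14.9 and 15.2 CPM in wild type 1 to 4. Both groups were tight and did not overlap, and the order of the mutants was the same as for Tnfrsf13c, with mutant 3 highest and mutant 2 lowest. The log2 fold change was -2.77 (SE 0.23, adjusted p = 1.89e-04, edgeR). The deposited span (chromosome 11, 61140835 to 61147642, plus strand) is that of a GENCODE M21 transcript of 750 bases, of which 747 are annotated as coding, while the longest annotated transcript of the gene has 2556 bases. The deposited span starts 14080 bases after the RefSeq start site used for the gene's promoter window, so its level leaves out reads from outside that span, in both groups.

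BCMA, the receptor of plasma cells, was the least abundant member. Tnfrsf17 (chromosome 16, 11313809 to 11320068, plus strand) had 11, 12 and 0 counts in mutants 1 to 3, against 69, 83, 144 and 109 counts in wild type 1 to 4. These are 0.227, 0.423 and 0 CPM for the mutant spleens, against 2.41, 3.03, 3.20 and 1.45 CPM for the wild-type ones. No mutant reached the lowest wild-type spleen, wild type 4, and the 0 in mutant 3 allows up to 3 counts, or 0.0979 CPM, as a one-sided 95% limit, while its two-sided exact binomial interval ends at 0.12 CPM. The log2 fold change was -3.54 (SE 0.83, adjusted p = 0.00812, edgeR), and without wild type 1 and 2, which had the more erythroid RNA of the wild-type spleens, it was -3.41 (adjusted p = 0.0503, edgeR, range 3.18e-06 to 0.0503 over its alternatives).

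Levels can be set side by side between genes per length. Divided by the length in kilobases of the matching GENCODE M21 transcript within the deposited span, the mutant levels averaged 6.32 (range 1.65 to 13.6) CPM per kilobase for Tnfsf13, 5.23 (3.68 to 6.63) for Tnfrsf13c, 2.83 (2.30 to 3.39) for Tnfrsf13b, 1.17 (0.913 to 1.64) for Tnfsf13b and 0.268 (0 to 0.523) for Tnfrsf17. The wild-type levels per kilobase averaged 72.2 (62.1 to 87.9) for Tnfrsf13c, 19.2 (17.1 to 20.3) for Tnfrsf13b, 15.7 (13.5 to 19.4) for Tnfsf13, 7.01 (5.11 to 8.93) for Tnfsf13b and 3.12 (1.80 to 3.95) for Tnfrsf17. In mutants the range of Tnfsf13 took in those of Tnfrsf13c and Tnfrsf13b, and in wild type Tnfrsf13b and Tnfsf13 overlapped, while the other neighbours in each order did not. The transcripts used have 750 to 1906 bases in the deposited spans, and the annotation the authors counted on may differ.

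Of 4 ratios between members 2 separated the groups and 2 overlapped, and a ratio within a library does not depend on how libraries are scaled. For every 100 counts of Tnfrsf13c there were 20.3, 24.6 and 20.2 counts of Tnfrsf13b in mutants 1 to 3, against 9.04, 11.8, 8.89 and 12.9 in wild type 1 to 4. The mutant spleens were all above the wild-type spleens. For every 100 counts of Tnfrsf13c there were 15.1, 39.7 and 12.9 counts of Tnfsf13b in mutants, against 6.11, 9.34, 9.05 and 10.4 in wild type, again without overlap. For every 100 counts of Tnfsf13b there were 1230, 189 and 142 counts of Tnfsf13 in mutants and 219, 192, 180 and 162 in wild type, so mutant 1 was above all wild-type spleens, mutant 2 was within their range and mutant 3 was below them. For every 100 counts of Tnfrsf13c there were 2.21, 6.03 and 0 counts of Tnfrsf17 in mutants and 1.70, 2.47, 1.91 and 1.23 in wild type, with mutant 2 above, mutant 3 below and mutant 1 within the wild-type range. These ratios were chosen after the values were seen and were not tested.

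**Figure D2:**
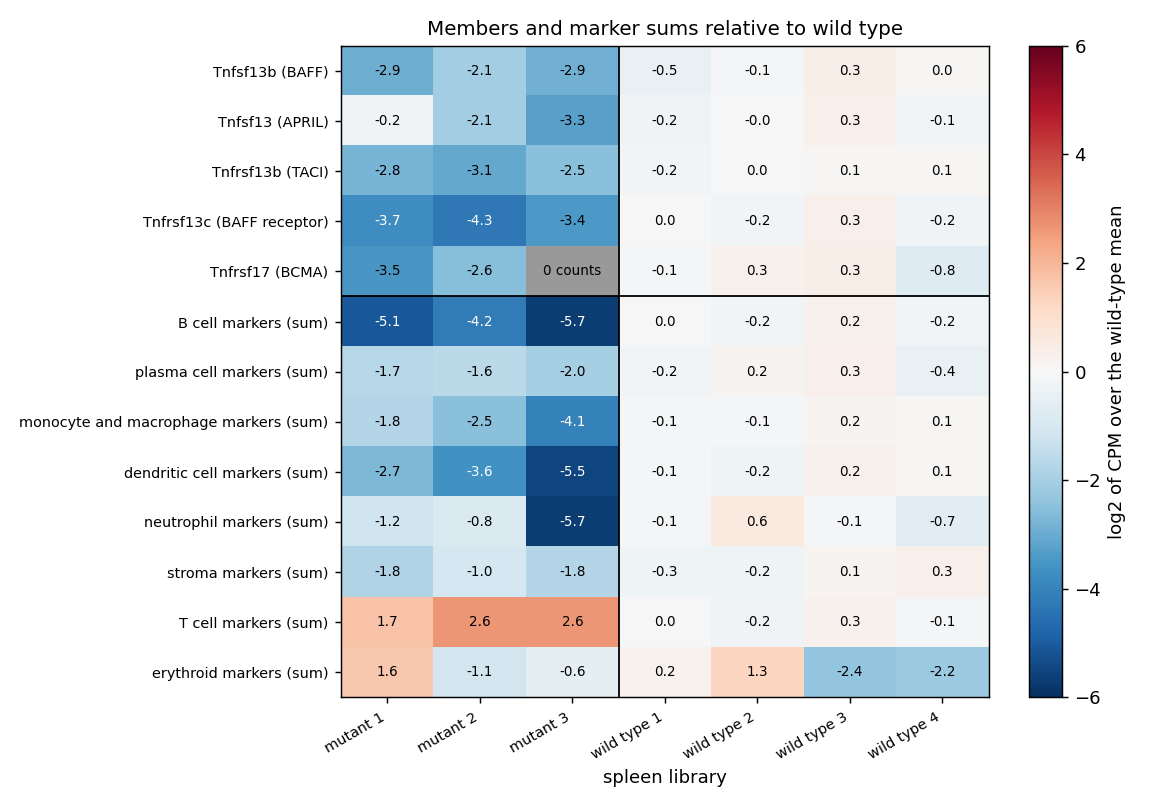
Log2 of each library's CPM over the wild-type mean (colour and printed value) for the 5 members and for summed marker levels, with 3 mutant and 4 wild-type libraries in columns and grey for 0 counts. B cell markers are lowest in mutant 3, where Tnfrsf13c, at 12.6 CPM, and Tnfrsf13b, at 2.55 CPM, are highest among the mutants.

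The receptors were then set against B cell markers in the same spleen. All 19 B cell markers fell, beside 28.9% of all genes tested, with a median log2 fold change of -5.25 (range -6.24 to -2.72). Their summed level was lowest in mutant 3, which held the most Tnfrsf13c of the mutants. Spib, a B cell transcription factor, stood at 6.72, 14.2 and 13.02 CPM in the mutants, against 435, 358, 458 and 388 CPM in wild type. Pou2af1, a B cell coactivator of Oct factors, had the smallest change of the list, at 27.9, 61.0 and 82.9 CPM in mutants, against 318, 308, 459 and 416 CPM in wild type, and it too was highest in mutant 3.

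On the log2 CPM scale, Tnfrsf13c minus the mean of the 19 B cell markers was 0.24, -1.17 and 2.70 in mutants 1 to 3, against -1.15, -1.17, -1.11 and -1.21 in wild type 1 to 4. The wild-type spleens lay within a narrow band, mutant 2 lay inside it and mutants 1 and 3 lay above it (difference of means 1.75, exact permutation test, two-sided p = 0.171). The difference was 0.69 without mutant 3, and 2.08 with the median of the markers in place of their mean. Tnfrsf13b minus the same markers was -2.03, -3.16 and 0.41 in mutants, against -4.61, -4.24, -4.60 and -4.16 in wild type, higher in every mutant. That difference was 2.81 (exact permutation test, two-sided p = 0.0571, adjusted p = 0.0857 over 6 such pairs). These p-values double the smaller tail, which cannot give less than 0.0571 for 3 against 4 spleens. Taken over absolute differences, a two-sided convention computed first, the exact permutation p reached its smallest value of 0.0286 for 4 of the 6 pairs (adjusted p = 0.0429), so the call of those pairs depends on the convention. The Tnfrsf13b difference was 1.81 without mutant 3.

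Tnfrsf17 was set against both B cell and plasma cell markers. Relative to 10 plasma cell markers its log2 CPM was -6.28, -5.39 and -8.09 in mutants, against -4.27, -4.39, -4.32 and -4.95 in wild type, lower in every mutant (difference -2.11, exact permutation test, two-sided p = 0.0571, adjusted p = 0.0857). It was -1.35 without mutant 3, -2.85 with a prior count of 0.5 in place of 2, and -2.20 with the median of the markers, where the groups no longer gave the smallest p (exact permutation p = 0.114). Relative to B cell markers the difference had the other sign, 1.83 (exact permutation p = 0.0571). It was 1.10 with a prior count of 0.5, where the groups no longer gave the smallest p (exact permutation p = 0.229). Both comparisons rest on Tnfrsf17 counts of 11, 12 and 0 in mutants 1 to 3. Of the 10 plasma cell markers 7 fell and 1 rose, beside 28.9% and 28.5% of all genes tested, with a median log2 fold change of -1.30. Their log2 fold changes ran from -3.51 (Derl3), near the -3.54 of Tnfrsf17, to 2.79 (Sdc1). The difference between Tnfrsf17 and these markers therefore depends on which of them are averaged. Igj, the joining chain of secreted antibodies, stood at 144, 226 and 6.85 CPM in mutants 1 to 3, against 957, 1258, 1385 and 654 CPM in wild type 1 to 4, and was lowest among the mutants in mutant 3. The plasma cell markers did not share 1 order among the mutants. Highest in mutant 3 were Mzb1 at 4.55, 11.99 and 32.6 CPM, Irf4 at 23.8, 16.8 and 67.0 CPM and Txndc5 at 96.0, 99.7 and 138 CPM in mutants 1 to 3. Fkbp11 was narrowly highest there too, at 2.40, 2.33 and 2.71 CPM. Like Igj, lowest in mutant 3 were Prdm1 (4.92, 1.94 and 1.01 CPM), Ell2 (95.2, 19.3 and 14.9 CPM) and Derl3 (2.00, 2.57 and 0.228 CPM). Xbp1 was highest in mutant 1 and Sdc1 in mutant 2. Prdm1, the factor that drives plasma cell formation, fell by 2.53 (SE 0.53) and Xbp1, the factor of the secretory programme, fell by 0.94 (SE 0.18) on the log2 scale. Sdc1, the member that rose, also belongs to the proteoglycans described below.

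The ligands were set against 14 monocyte and macrophage markers. Tnfsf13b minus the mean of these markers was -4.29, -2.59 and -1.72 in mutants 1 to 3, against -3.63, -3.16, -3.06 and -3.29 in wild type 1 to 4, with mutants on both sides (difference 0.42, exact permutation test, two-sided p = 0.571). It was -0.30 with the median of the markers and -0.15 without mutant 3. Tnfsf13 minus the same markers was -0.71, -1.68 and -1.23 in mutants, against -2.50, -2.22, -2.21 and -2.60 in wild type, higher in every mutant. That difference was 1.18 (exact permutation test, two-sided p = 0.0571, adjusted p = 0.0857). It was 0.46 with the median of the markers, where the groups no longer gave the smallest p (exact permutation p = 0.286). Of the monocyte and macrophage markers 13 of 14 fell, beside 28.9% of all genes tested. Their summed levels were 217 to 1064 CPM in mutants, against 3315 to 4112 CPM in wild type.

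**Figure D3:**
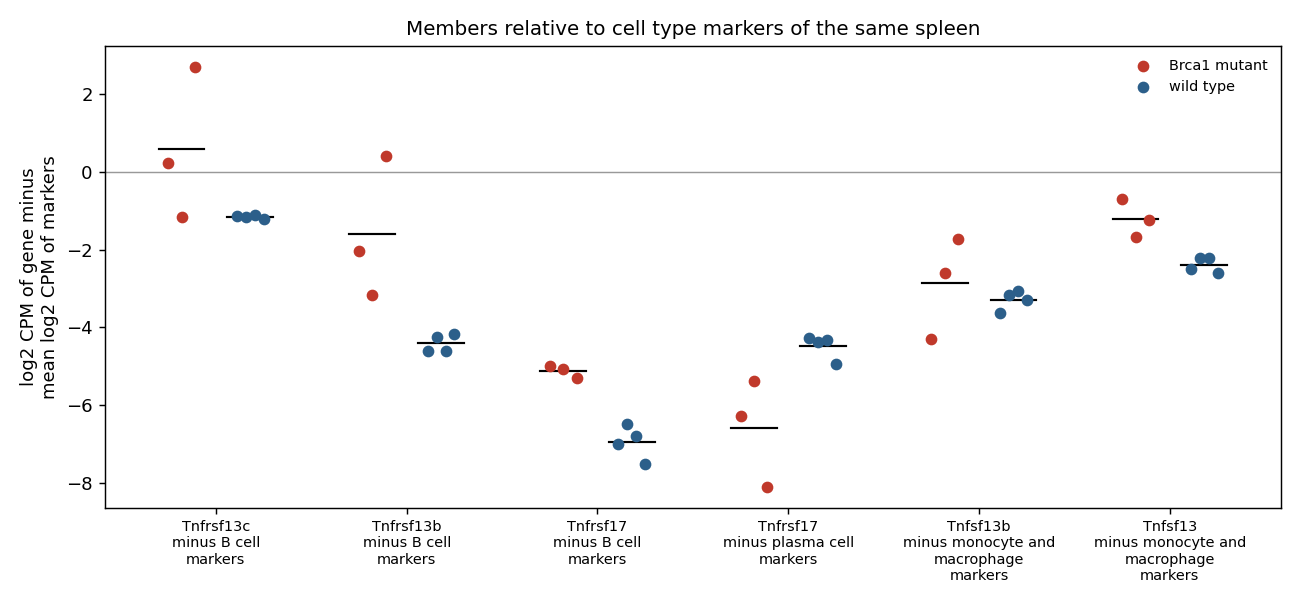
Log2 CPM of a member minus the mean log2 CPM of cell type markers in the same spleen (vertical axis), in 3 mutant and 4 wild-type spleens, with bars at group means. Tnfrsf13b lies between -3.16 and 0.41 in mutants, above all wild-type values, and Tnfrsf17 lies below all wild-type values relative to plasma cell markers.

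Markers of other cell types that can make BAFF or APRIL were also counted, beside 28.9% lower and 28.5% higher over all genes tested. Of dendritic cell markers 8 of 9 fell, at a summed 13.4 to 93.9 CPM in mutants, against 512 to 716 CPM in wild type. Of neutrophil markers 4 of 10 fell, with summed levels of 21.7 to 621 CPM in mutants, against 694 to 1691 CPM in wild type. Of stroma markers 5 of 11 fell and 1, Pdgfrb, rose (1.57, SE 0.33). Cxcl13, the chemokine of B cell follicles, fell by 4.10 (SE 0.33) on the log2 scale and Mfge8, a protein of follicular dendritic cells and macrophages, by 2.55 (SE 0.25). NK cell markers fell in 7 of 8, and T cell markers rose in 13 of 14. By edgeR 0 of 12 erythroid markers passed, with 0 at an unadjusted p under 0.05 and 0 by DESeq2 or limma-voom. Interferon, which induces BAFF in myeloid cells, was represented by 13 response genes, of which 10 fell, at a median log2 fold change of -2.28, with Stat2 at -1.86 (SE 0.13). Their part in the levels of BAFF and APRIL was not tested.

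Genes that carry the signal inside the cell were mostly lower. Of 18 receptor signalling genes 12 fell (66.7%) and 2 rose (11.1%), beside 28.9% and 28.5% of all genes tested. Their median log2 fold change was -1.44. The noncanonical NF-kappaB branch was lower at each step measured downstream of the adaptors apart from Chuk (-0.20, SE 0.21). Relb, the partner of processed Nfkb2, stood at 7.79, 7.40 and 4.83 CPM in mutants 1 to 3, against 58.7, 53.0, 74.2 and 60.1 CPM in wild type 1 to 4, and its log2 fold change was -3.21 (SE 0.23, edgeR adjusted p = 1.54e-04). Nfkb2 stood at 29.0, 34.3 and 18.6 CPM in mutants, against 163, 147, 197 and 168 CPM in wild type (-2.63, SE 0.24). Map3k14, the kinase NIK, stood at 12.6, 15.9 and 18.9 CPM in mutants, against 60.2, 52.5, 72.6 and 53.2 CPM in wild type (-1.92, SE 0.20). For these 3 genes the groups did not overlap.

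Traf3, the adaptor that holds NIK in check until a receptor is engaged, fell by 1.47 (SE 0.16) on the log2 scale, and Traf2, which works with it, by 0.45 (SE 0.14). Traf2 did not pass when mutant 1, wild type 1 or wild type 3 was left out (edgeR adjusted p = 0.0573 to 0.0646). Birc3, a ubiquitin ligase of the same complex, fell by 2.90 (SE 0.20), and Traf1, an adaptor induced by NF-kappaB, by 4.42 (SE 0.51). Syk, a kinase of B cell receptor signalling that BAFF receptor signals also use, stood at 65.7, 68.1 and 74.7 CPM in mutants, against 658, 684, 992 and 628 CPM in wild type. The genes that rose were Traf6 (0.45, SE 0.14), an adaptor of TACI and of Toll-like receptors, and Akt1 (0.35, SE 0.13), a survival kinase. Neither passed when libraries were scaled by size alone (0.19 and 0.11, edgeR adjusted p = 0.336 and 0.535), nor when any 1 library other than mutant 1 was left out. Caml, listed for the TACI-binding protein CAML, was at 0.06 (SE 0.14) and Myd88, an adaptor that TACI can use, at -0.26 (SE 0.22). Cd40, a B cell receptor that shares these adaptors, fell by 5.12 (SE 0.71).

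**Figure D4:**
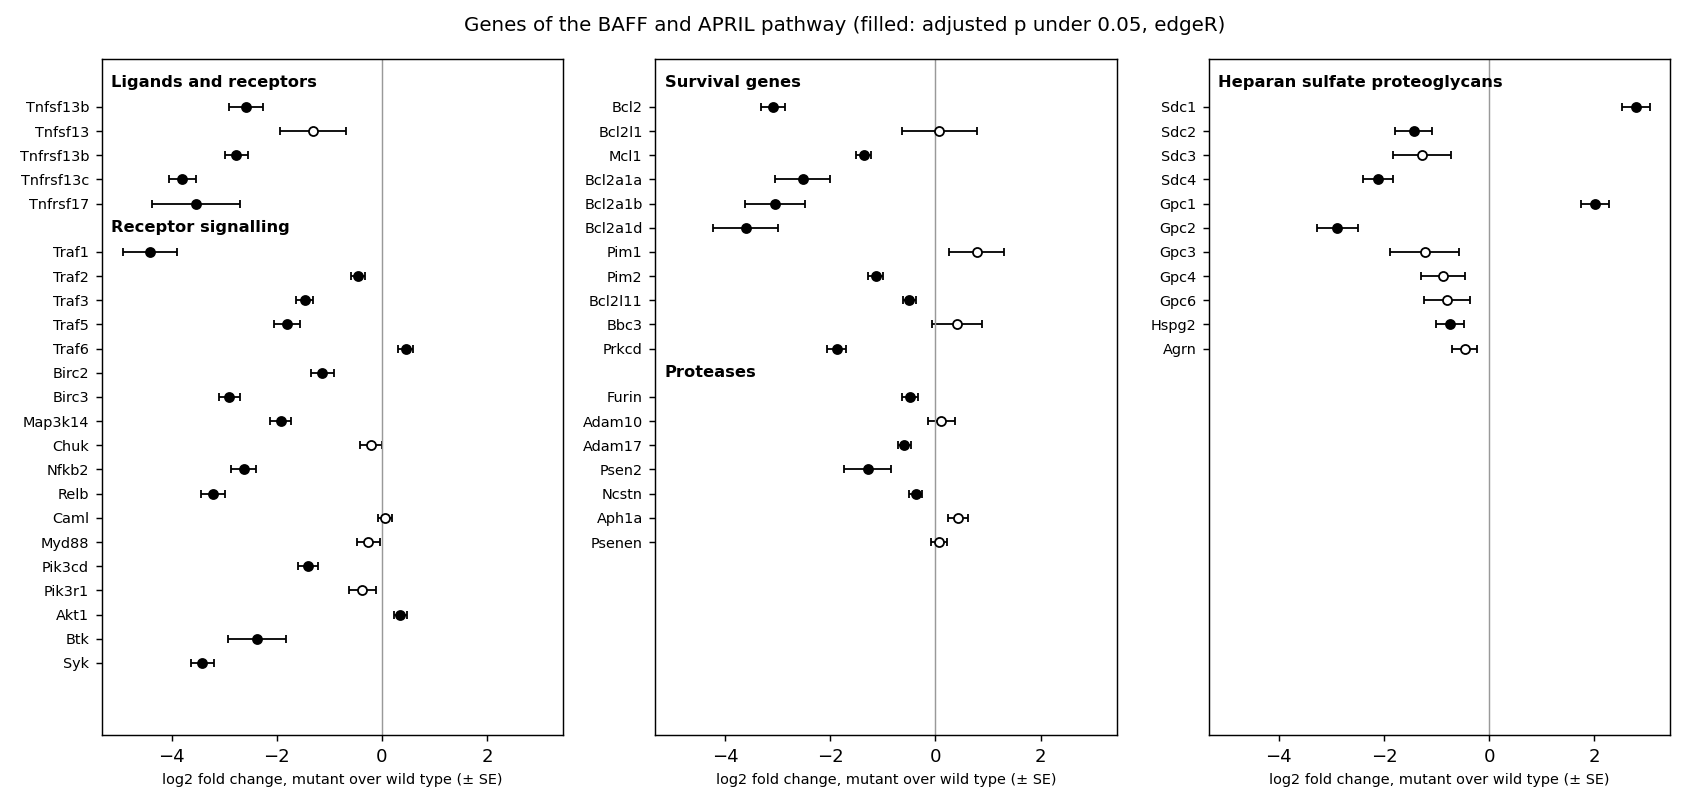
Log2 fold change, mutant over wild type, ± SE (horizontal axis) of the ligands and receptors, receptor signalling genes, survival genes, proteases (7 of 8) and heparan sulfate proteoglycans, filled where the adjusted p was under 0.05 by edgeR. Relb at -3.21 and Bcl2 at -3.09 are among the lower genes, and Sdc1 at 2.79 is the highest of those shown.

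Of 11 genes that act for or against cell survival downstream of BAFF 8 fell (72.7%), beside 28.9% of all genes tested. The 11 genes had a median log2 fold change of -1.36. They include the death-promoting Bcl2l11 and 3 near-identical Bcl2a1 copies, so the count is not one of survival factors alone. Bcl2, which blocks mitochondrial cell death, stood at 10.6, 17.2 and 15.3 CPM in mutants 1 to 3, against 113, 102, 120 and 153 CPM in wild type 1 to 4, and its log2 fold change was -3.09 (SE 0.23, edgeR adjusted p = 1.54e-04). Mcl1, a relative needed by many blood cells, stood at 277, 306 and 278 CPM in mutants, against 717, 649, 792 and 786 CPM in wild type (-1.36, SE 0.14). Pim2, a survival kinase, fell to 18.2 to 22.4 CPM in mutants, against 40.5 to 48.9 CPM in wild type. Bcl2a1a, Bcl2a1b and Bcl2a1d also fell (log2 fold changes -2.52, -3.05 and -3.61), but their reads may be shared between the copies, so their separate values are uncertain. Bcl2l11, which encodes the death-promoting protein BIM that BAFF holds down, fell by 0.50 (SE 0.13). Bcl2l1 (BCL-XL) ranged from 51.2 to 162 CPM in mutants and from 28.8 to 201 CPM in wild type (0.07, SE 0.72), and Pim1 was at 286, 77.3 and 79.3 CPM in mutants, against 86.1, 131, 71.8 and 52.2 CPM in wild type (0.78, SE 0.52).

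Of 8 proteases that release or cut the family's proteins 4 were lower (50%) and 0 higher, beside 28.9% and 28.5% of all genes tested. Their median log2 fold change was -0.16. Furin, which cleaves both ligands from their precursors, stood at 39.7 ± 4.80 CPM in mutants and 55.1 ± 5.69 CPM in wild type (SD, n = 3 and 4), and its log2 fold change was -0.48 (SE 0.15, edgeR adjusted p = 0.0266). It did not pass when any 1 library other than mutant 1 or wild type 4 was left out (edgeR adjusted p = 0.0559 to 0.0827). Adam17, a sheddase, fell by 0.59 (SE 0.12), and Adam10, which sheds TACI, was at 0.11 (SE 0.26). Of the gamma-secretase genes, whose complex cuts BCMA from the cell surface, Ncstn (-0.38, SE 0.12) and Psen2 (-1.29, SE 0.45) fell, and Aph1a and Psenen did not pass (0.43 and 0.06). Psen2 passed narrowly (edgeR adjusted p = 0.0391), with its highest mutant at 43.7 CPM, just under the lowest wild-type spleen at 45.9 CPM. Ncstn did not pass without mutant 2 or without any 1 of wild type 1 to 3 (edgeR adjusted p = 0.0527 to 0.0746).

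Heparan sulfate proteoglycans, the other binding partners of APRIL, held 4 of 11 tested genes lower (36.4%) and 2 higher (18.2%), beside 28.9% and 28.5% of all genes tested, at a median log2 fold change of -0.88. Sdc1, syndecan-1, stood at 65.5, 127 and 104 CPM in mutants 1 to 3, against 13.5, 17.6, 14.8 and 11.1 CPM in wild type 1 to 4. Every mutant was well above every wild-type spleen, and the log2 fold change was 2.79 (SE 0.26, edgeR adjusted p = 2.64e-04). Gpc1, glypican-1, stood at 30.4, 68.5 and 51.8 CPM in mutants, against 11.7, 11.9, 14.3 and 11.8 CPM in wild type (2.01, SE 0.27). Sdc4, another syndecan, stood at 23.9, 16.5 and 10.5 CPM in mutants, against 75.5, 61.3, 77.3 and 79.0 CPM in wild type (-2.11, SE 0.28).

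The genes whose levels ran closest to each member were found by the root mean square difference of mean-centred log2 CPM over the 7 libraries, among genes averaging at least 5 CPM. Nearest to Tnfrsf13c were Wdfy4 (0.12), Shank1 (0.23) and Gpr18 (0.24), in log2 units. Wdfy4 stood at 30.6, 19.9 and 38.1 CPM in mutants 1 to 3, against 450, 363, 448 and 423 CPM in wild type 1 to 4, with the mutants in the same order as Tnfrsf13c. Nearest to Tnfrsf13b were Ap3m2 (0.12), Arsb (0.13) and Parp8 (0.14). Nearest to Tnfsf13b were Gdf10 (0.14), Gem (0.19) and Mfge8 (0.19). Nearest to Tnfsf13 were BC026585 (0.14), Pfkfb4 (0.15) and the overlapping Tnfsf12Tnfsf13 (0.17), and nearest to Tnfrsf17 were Derl3 (0.24), Clec4g (0.28) and Rap1gap (0.31). Derl3, a plasma cell gene of protein quality control, stood at 2.00, 2.57 and 0.228 CPM in mutants, against 12.7, 23.8, 25.1 and 11.4 CPM in wild type, lowest in mutant 3 and, within wild type, in wild type 4, as Tnfrsf17 was. Wdfy4 and Derl3 were picked for likeness over these same libraries, so an order shared with the member is no separate result. The Tnfrsf17 value in mutant 3 rests on 0 counts.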

How the data were processed

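Counts from RNA sequencing of 3 mutant and 4 wild-type spleens were used. Per the submitters' processing notes the tools were edgeR, Subread 1.4.6 with featureCounts, TopHat2 2.0.12 and bcl2fastq 2.17.1.14, on build mm10; settings and strand: not given in the sources used here. Raw counts were deposited by the authors beside a CPM table, treated as a score because its columns sum to 849108 to 1164022. Each deposited CPM column is the counts times 1 constant. Starts were shifted to count from 1. On the counts, edgeR 4.0.16 (R 4.3.3) used TMM factors, filterByExpr and the group term. DESeq2 1.42.0, limma 3.58.1, other scalings and filters, a replicate block and left-out libraries were alternatives. Member-to-marker differences used log2 CPM with a prior count of 2; their exact permutation p over 35 splits doubles the smaller tail. The p over absolute differences was computed first, and the switch was made after its values were seen. The switch ended the call of 4 of 6 pairs (adjusted p 0.0429 against 0.0857 after it), and both are given. The doubled tail could call no pair, because its exact permutation p cannot go under 0.0571. The count test was tested on simulated data with 200 changed genes in 7 libraries (14874 genes tested): it called 64.9% of 4-fold and 3.03% of 2-fold changes, and 5.71% of its calls were unchanged genes. In the data 57.4% of genes tested were called, far more than were changed there. The simulated shares therefore do not give the power of the fit to the data. The members, 14 gene lists and tests were chosen with earlier results of these data known. Named genes were the members, Brca1, 13 partners, up to 3 genes of smallest p per list, genes against their list's direction and the 3 nearest to each member; not all are printed, and further examples were picked after their values were seen. Promoters are from RefSeq on GRCm38.p6 and were found for 5 of 5 members; lengths are from GENCODE M21. Intervals cover counting error only. Some genes that the lists count are not reported here by name.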

Additional observations from a re-analysis of the deposited data

Results flagged for a closer look

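One value stood apart from its group. Tnfrsf17 minus the plasma cell markers was -4.95 in wild type 4 on the log2 CPM scale, against -4.39 to -4.27 in the other wild-type spleens, and its gap to the nearest of them took up 0.83 of the group's range, just past Dixon's 95% critical value for 4 samples. Wild type 4 also had the lowest Tnfrsf17 level of its group, 1.45 CPM, and the lowest summed plasma cell markers, 1278 CPM. Of 35 wild-type groups of values examined this was the 1 that passed, where chance passes about 5%.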

How the results depend on the processing

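Tnfsf13b, Tnfrsf13b and Tnfrsf13c kept their direction and stayed past the threshold under all 16 alternatives, with log2 fold changes of -2.93 to -2.11, -3.02 to -2.31 and -4.05 to -3.62. Tnfrsf17 kept its direction under all 16 (-4.31 to -1.52), and without wild type 1 and 2 it did not pass (-3.41, adjusted p = 0.0503); that fit has fewer samples. Tnfsf13 passed with DESeq2 (-1.31), with limma-voom (-1.70) and without mutant 1 (-2.46), and leaving out 1 library in turn gave -2.46 to -0.86. The cause of the difference between tools was not tested. Scaling by library size alone placed the median of all genes at -0.26 on the log2 scale and made 38.1% of calls higher instead of 49.7%, and Traf6 and Akt1 did not pass there. With the replicate block 6090 genes were called, against 8724 without it, and 4 of 5 members were called in both. Deviations of same-numbered spleens correlated at 0.0421, -0.186 and 0.101, so the numbers are not taken as pairs. Leaving out 1 library gave 7370 to 9821 called genes and 4 to 5 called members. The few mutant counts of Tnfrsf17 limit its precision. With p taken over absolute differences, the convention computed first, 4 member-to-marker differences passed (adjusted p = 0.0429, exact permutation test). The doubled smaller tail replaced it after those values were seen. With it 0 of 6 passed, and none could, because its exact permutation p cannot go under 0.0571 here. That outcome says nothing of the pairs. The 4 were Tnfrsf13b to B cell markers (2.81), Tnfrsf17 to B cell markers (1.83), Tnfrsf17 to plasma cell markers (-2.11) and Tnfsf13 to monocyte and macrophage markers (1.18). Tnfrsf17 to B cell markers no longer gave the smallest p with a prior count of 0.5. Nor did Tnfrsf17 to plasma cell markers or Tnfsf13 with the median of the markers.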

Other observations

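Mutant 1 held other transcripts at levels unlike the other mutants, beside its wild-type-like Tnfsf13. Pfkfb4, an enzyme that controls glycolysis, stood at 23.5, 5.50 and 2.84 CPM in mutants 1 to 3, against 23.9, 20.5, 28.6 and 22.01 CPM in wild type 1 to 4. It was picked as 1 of the 3 genes nearest to Tnfsf13 over these libraries, so its likeness to Tnfsf13 follows from that choice. Btk, a kinase of B and myeloid cells, stood at 51.5, 14.8 and 9.76 CPM in mutants, against 132, 120, 144 and 130 CPM in wild type, highest among the mutants in mutant 1.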
